A study of Mus musculus with 3 samples.

Results

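Sycp1, Sycp2, Sycp3, Syce1, Syce2, Syce3, Tex12 and Hormad1 encode parts of the synaptonemal complex and of the chromosome axis on which it is built. These 8 genes were taken by name from the 36593 genes of the count tables, by their known roles and with earlier results of these data known. All 8 had counts in each of the 3 libraries. They were followed through 10328 germ cells that could be placed in a stage, of 18081 cells kept, with 6218 named somatic cells of the same libraries as background.

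The 3 libraries of mouse testis cells on C57BL/6 were measured by droplet single-cell RNA sequencing, in which each captured mRNA molecule is counted once by its unique molecular identifier (UMI). The Scf-cKO library came from Amh-cre; Scf fl/fl mice of 6 weeks, in which Cre under the Amh promoter deletes stem cell factor (Kitl, here Scf) from Sertoli cells. The Tomato-negative library came from Ddx4-creER; R26tdTomato mice, 8 weeks old by the labels and given tamoxifen, after sorting away the Tomato+ germ cells, yet it still held 3346 germ cells with a stage. The control library came from Scf fl/fl mice of 6 weeks, which carry the same floxed allele without Cre. By the study's methods the Scf-cKO and control cells came from several mice per genotype and had been sorted to deplete haploid spermatids. With 1 library per group, no test across mice was possible. Every interval below covers counting error at 95% and not the spread between mice.

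In meiotic prophase homologous chromosomes pair and are held together along their length by the synaptonemal complex, a protein ladder. Its sides are the chromosome axes, which carry SYCP2 and SYCP3 over a cohesin core and are bound by HORMAD1 where they are not yet joined. SYCP1 forms the rungs (transverse filaments), and SYCE1, SYCE2, SYCE3 and TEX12 form the central element where rungs from both sides meet. The ladder starts to form in leptotene and zygotene, is complete in pachytene and is taken apart in diplotene. Loss of these proteins in the mouse leads to failed synapsis and infertility or reduced fertility.

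The kept cells were clustered without the 8 genes, and 16 germ cell clusters were named from other stage markers. Cells of a class are called by that stage with the ending "-like". The undifferentiated-like class held 1316 Scf-cKO, 513 Tomato-negative and 395 control cells, the differentiating-like class 837, 1060 and 1107, and the preleptotene-like class 98, 882 and 1628. Later stages came almost only from the Scf-intact libraries. The leptotene/zygotene-like class held 6 Scf-cKO, 16 Tomato-negative and 307 control cells, and the late spermatocyte-like class (pachytene or later) 17, 497 and 897. There were 10, 171 and 219 round spermatid-like cells and 10, 207 and 135 elongating spermatid-like cells. Classes with under 30 cells in a library are given as values and enter no comparison. Median depth by class was between 4580 and 73828 UMIs. Kitl itself could be read in few Sertoli-like cells, with 8 UMIs in 24 Scf-cKO cells (37.9 CPM) and 11 UMIs in 3 control cells (371 CPM), and whether a 3′ tag of Kitl lies in the deleted part is unknown here. The libraries shared between 9 and 15 cell barcodes in pairs.

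Levels are given as CPM, the UMIs of a gene summed over the cells of a class and scaled to 1000000 UMIs of that class. The 8 genes together made up 1412 CPM (95% interval 1397 to 1428) of the RNA in Scf-cKO undifferentiated-like cells, 1539 CPM in Tomato-negative cells and 1439.9 CPM in control cells of that class. In differentiating-like cells they summed to 1630.3, 2000.3 and 1785 CPM in Scf-cKO, Tomato-negative and control cells. Preleptotene-like cells had 5611, 6515 and 5884 CPM in the same order of libraries. The sum was highest in leptotene/zygotene-like cells, at 11626 CPM (11461 to 11794) in the control library, against 12885 CPM in the 16 Tomato-negative and 12289 CPM in the 6 Scf-cKO cells. It was 1742 CPM in Tomato-negative and 2433 CPM in control late spermatocyte-like cells. In round spermatid-like cells it was 1381 and 1303 CPM, and in elongating spermatid-like cells 1201 and 1216 CPM, in Tomato-negative and control cells.

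**Figure D1:**
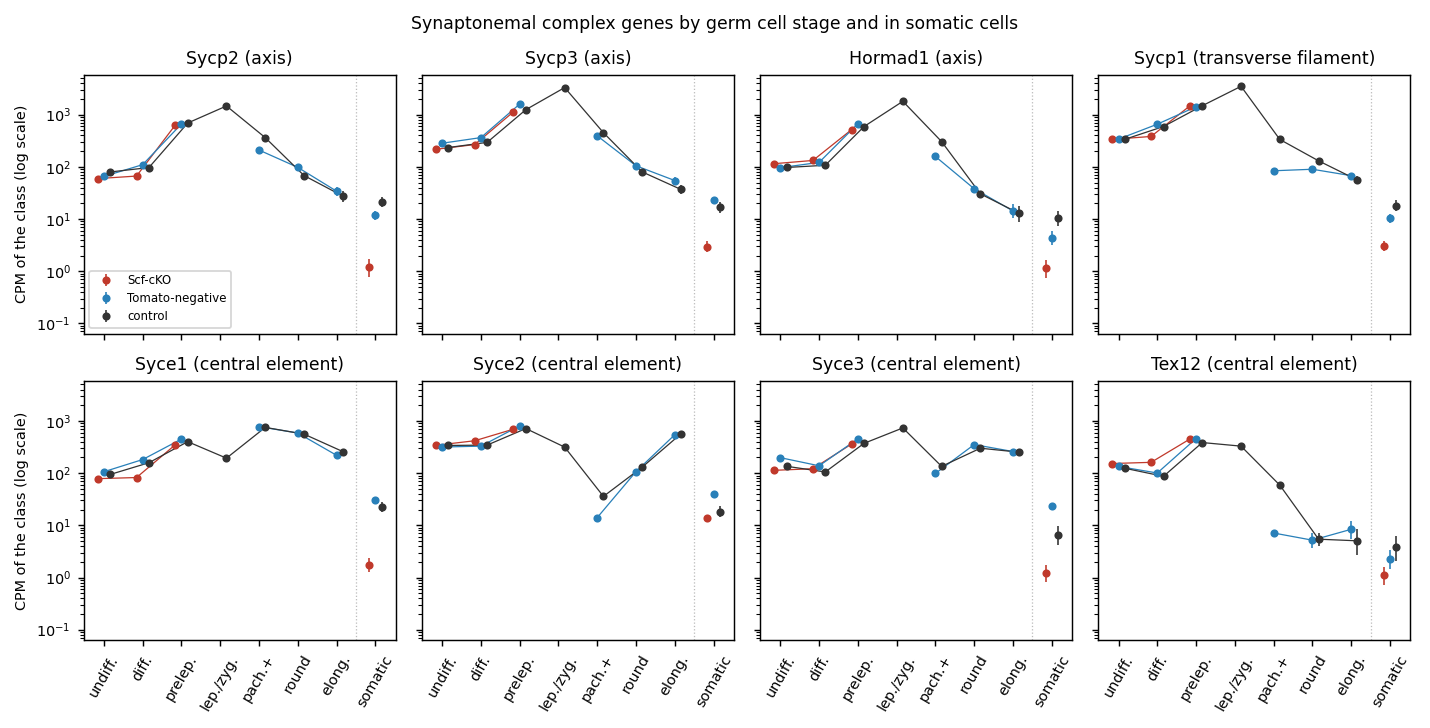
Level of each of the 8 genes (CPM of the class, log scale, with exact Poisson 95% intervals) in 7 germ cell classes and in somatic cells, for Scf-cKO (red), Tomato-negative (blue) and control (black) libraries, in classes with at least 30 cells. Sycp3 reached 3299.7 CPM in control leptotene/zygotene-like cells, while Syce1 was at 752 CPM in late spermatocyte-like cells and Syce2 at 567 CPM in elongating spermatid-like cells.

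Among the axis genes, Sycp3, which lies on chromosome 10 (88459569 to 88473236, plus strand, GRCm38), was already present in spermatogonia. It had 217 CPM in Scf-cKO, 283 CPM in Tomato-negative and 235 CPM in control undifferentiated-like cells, then 267, 363 and 294 CPM in differentiating-like cells of the same libraries. In preleptotene-like cells Sycp3 was at 1133, 1595 and 1246 CPM. The highest level was that of leptotene/zygotene-like cells, at 3299.7 CPM (3212 to 3389) in control, followed by 451 CPM in late spermatocyte-like, 79.9 CPM in round spermatid-like and 36.9 CPM in elongating spermatid-like control cells. The Tomato-negative values for the last 3 classes were 393, 105 and 54.6 CPM, so both libraries ran down the same order.

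Sycp2 (chromosome 2, 178345293 to 178407685, minus strand), the partner of SYCP3 in the lateral element, was low in spermatogonia. It was at 59.5 CPM in Scf-cKO, 65.6 CPM in Tomato-negative and 79.7 CPM in control undifferentiated-like cells. Preleptotene-like cells had 632, 665 and 691 CPM in the same libraries, and the intervals of the lowest and the highest overlapped (568 to 701 CPM and 673 to 709 CPM). Sycp2 reached 1465 CPM in control leptotene/zygotene-like cells and was at 209.6 CPM in Tomato-negative and 363 CPM in control late spermatocyte-like cells.

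Hormad1 (chromosome 3, 95559677 to 95587671, plus strand), whose protein marks axes before they are joined, followed the same course. Its levels were 115, 96.3 and 97.1 CPM in Scf-cKO, Tomato-negative and control undifferentiated-like cells and 518, 670.4 and 592 CPM in preleptotene-like cells. In control leptotene/zygotene-like cells Hormad1 was at 1801 CPM (1736 to 1867), and in elongating spermatid-like cells at 14.3 CPM in Tomato-negative and 12.8 CPM in control cells. Across the 15 class and library points of the control and Tomato-negative libraries with at least 50 cells, somatic cells included, log2(CPM + 10) of Hormad1 had Pearson's r of 0.99 with Sycp3 and 0.98 with Sycp2. These points share libraries and are a description only.

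Sycp1 (chromosome 3, 102818499 to 102936100, minus strand), the transverse filament gene, was already seen in spermatogonia, as was Sycp3. Undifferentiated-like cells had 335 CPM in Scf-cKO, 339 CPM in Tomato-negative and 336 CPM in control, so that the 3 libraries lay within each other's intervals. Differentiating-like cells had 656 CPM in Tomato-negative and 592 CPM in control, but 382 CPM (372.4 to 392.3) in Scf-cKO. Sycp1 then stood at 1471, 1417 and 1482 CPM in preleptotene-like cells of Scf-cKO, Tomato-negative and control, and at 3489 CPM in control leptotene/zygotene-like cells, where each of the 307 cells held at least 1 of its UMIs. Late spermatocyte-like cells had 84.0 CPM in Tomato-negative and 334 CPM in control.

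The 4 central element genes did not share one course. Syce1 (chromosome 7, 140777229 to 140787852, minus strand) was at 401 CPM in control preleptotene-like cells and at 193 CPM in leptotene/zygotene-like cells. It was highest in late spermatocyte-like cells, at 778 CPM in Tomato-negative and 752 CPM in control. Round spermatid-like cells still had 586 CPM in Tomato-negative and 559 CPM in control. Syce1 was the only member with its highest CPM after leptotene and zygotene in the control library.

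Syce2 (chromosome 8, 84872111 to 84888221, plus strand) was at 341 CPM in Scf-cKO, 316 CPM in Tomato-negative and 339 CPM in control undifferentiated-like cells. It was at 696, 804 and 715 CPM in preleptotene-like cells of these libraries. Late spermatocyte-like cells had 14.1 CPM in Tomato-negative and 35.8 CPM in control, and elongating spermatid-like cells had 543 CPM in Tomato-negative and 567 CPM in control. By class Syce2 thus had one high level in preleptotene-like cells and another in elongating spermatid-like cells. Within the preleptotene-like class of the control library it was at 1087 CPM in cluster 1 and at 396 and 415 CPM in clusters 4 and 12. The 10 elongating spermatid-like cells of the Scf-cKO library had 909 CPM (758 to 1082).

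Syce3 (chromosome 15, 89390174 to 89410503, minus strand) was at 113, 198 and 135 CPM in Scf-cKO, Tomato-negative and control undifferentiated-like cells. It was highest in control leptotene/zygotene-like cells at 734 CPM. Late spermatocyte-like cells had 98.8 CPM in Tomato-negative and 135 CPM in control, and round spermatid-like cells 352 CPM in Tomato-negative and 300.1 CPM in control, so Syce3 had another, lower maximum in spermatids.

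Tex12 (chromosome 9, 50556819 to 50561325, minus strand), whose protein pairs with SYCE2 in long fibres, was at 153, 134 and 124 CPM in Scf-cKO, Tomato-negative and control undifferentiated-like cells. Preleptotene-like cells had 449.7, 459.7 and 385 CPM, and control leptotene/zygotene-like cells 329 CPM. It was at 7.12 CPM in Tomato-negative and 58.8 CPM in control late spermatocyte-like cells, and at 5.19 and 5.42 CPM in round spermatid-like cells. The round spermatid-like levels lay near those of somatic cells, which were 2.29 CPM in Tomato-negative and 3.78 CPM in control. In spermatids Tex12 and Syce2 therefore stood apart, at 8.38 and 543 CPM in Tomato-negative and at 5.05 and 567 CPM in control elongating spermatid-like cells.

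The 8 genes were read in spermatogonia well above somatic cells of the same library. In Scf-cKO the ratio of undifferentiated-like over somatic CPM was lowest for Syce2 (25.2) and highest for Tex12 (139). In Tomato-negative it was between 3.41 (Syce1) and 58.5 (Tex12), and in control between 3.69 (Sycp2) and 32.8 (Tex12). The somatic sum of the 8 genes was 26.0 CPM in Scf-cKO, 146 CPM in Tomato-negative and 118 CPM in control cells. Free RNA can give UMIs in cells that do not express a gene, and these somatic levels are used as the background beside germ cell levels, without a test of their source. Prm1, a gene of elongating spermatids, was at 2.07 CPM in Scf-cKO, 452 CPM in Tomato-negative and 120.1 CPM in control somatic cells. Subtracting them left 1322 CPM of the 8 genes in control undifferentiated-like cells, against 1439.9 CPM before.

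At equal depth, the shares of spermatogonia with a UMI remained above background. A Sycp3 UMI was present in 89.9% of Scf-cKO, 95.3% of Tomato-negative and 84.6% of control undifferentiated-like cells, at median depths of 16497, 18690 and 11459 UMIs. After each cell had been thinned to 2000 UMIs these shares were 34.1%, 41.3% and 34.2%. Somatic cells at the same depth had 0.475%, 4.42% and 3.49% in Scf-cKO, Tomato-negative and control. For Sycp1 the thinned shares of undifferentiated-like cells were 46.7%, 44.4% and 44.0%, and for Syce2 46.2%, 45.6% and 52.4%. The lowest were those of Sycp2, at 10.3%, 14.7% and 15.7%.

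The number of the 8 genes seen in one cell was also highest in preleptotene-like and leptotene/zygotene-like cells. At 2000 UMIs, an undifferentiated-like cell showed on average 2.15 of the 8 in Scf-cKO, 2.34 in Tomato-negative and 2.19 in control. A preleptotene-like cell showed 5.03, 5.65 and 5.18, and a control leptotene/zygotene-like cell 5.88. Of these 291 leptotene/zygotene-like cells 62.5% showed 6 or more and 0% showed none. Late spermatocyte-like cells showed 2.21 in Tomato-negative and 3.14 in control, and somatic cells 0.0513 in Scf-cKO, 0.259 in Tomato-negative and 0.228 in control.

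**Figure D2:**
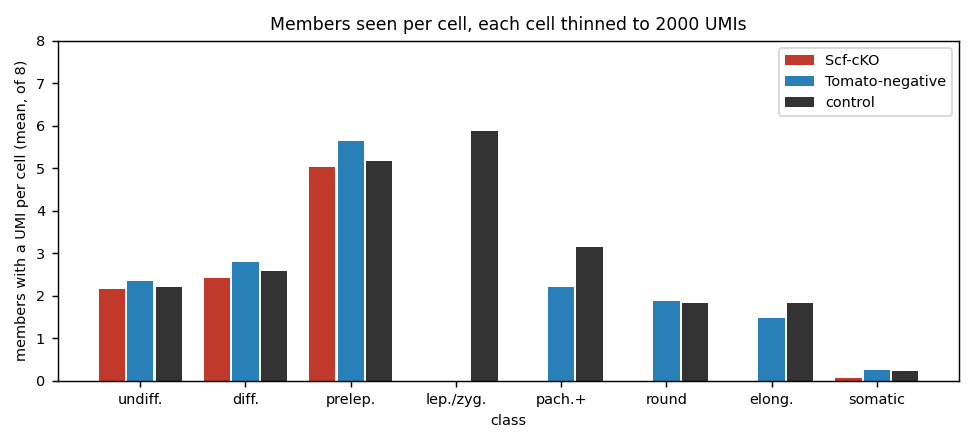
Mean number of the 8 genes with at least 1 UMI in a cell (y axis, of 8) after thinning each cell to 2000 UMIs, by class, for Scf-cKO (red), Tomato-negative (blue) and control (black) libraries with at least 30 cells. Preleptotene-like cells showed between 5.03 and 5.65 genes, spermatogonia between 2.15 and 2.78, and somatic cells at most 0.259.

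Between the spermatogonial classes 0 of the 8 genes were past 2-fold. In the Tomato-negative library, where 10.2% of all genes were 2-fold higher and 18.6% lower in differentiating-like over undifferentiated-like cells, the ratios were between 0.699 (Syce3) and 1.93 (Sycp1). In the control library, with 8.83% of all genes higher and 16.1% lower, they were between 0.70 (Tex12) and 1.76 (Sycp1).

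All 8 genes were at least 2-fold higher in preleptotene-like than in differentiating-like cells of both Scf-intact libraries by CPM. In the Tomato-negative library the ratios ran from 2.16 for Sycp1 to 6.04 for Sycp2, with 12.5% of all genes 2-fold higher and 21.5% lower. In the control library 18.2% of all 14661 genes with at least 20 counts were 2-fold higher and 15.4% lower, and the ratio was 7.13 (6.66 to 7.65) for Sycp2, 5.53 for Hormad1, 4.43 for Tex12, 4.24 for Sycp3, 3.54 for Syce3, 2.53 for Syce1, 2.50 for Sycp1 and 2.08 (1.99 to 2.17) for Syce2. The median log2 ratio of the 8 was 1.95, against 0.01 over all genes. As UMIs per cell, without scaling to depth, 4 of the 8 were 2-fold higher in control cells (Sycp2, Sycp3, Tex12 and Hormad1), where 5.8% of all genes were higher and 44.7% lower on that scale, with a median log2 ratio over all genes of -0.87. Preleptotene-like cells were shallower (median of 4580 UMIs, against 8412 in differentiating-like cells).

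Within the preleptotene-like class this increase was uneven. In the control library the sum of the 8 genes was 3278 CPM in cluster 4 and 3303 CPM in cluster 12, and 8977 CPM in cluster 1. Cluster 1 also had the higher level of Prdm9, a preleptotene marker here (383 CPM, against 139 in cluster 4 and 87.8 in cluster 12). The same held for Dmc1, a leptotene/zygotene marker here (509.6 CPM, against 142 in each of the others). Sycp3 was at 1997 CPM in cluster 1 and 611 CPM in cluster 4, and Tex12 at 606 and 209.8 CPM. Syce2, at 396 CPM in cluster 4, was near its 344 CPM in control differentiating-like cells. Sycp2 was at 287 CPM in cluster 4, against 96.8 CPM in control differentiating-like cells. In undifferentiated-like cells the sum was 1178 CPM in cluster 6, which had the highest Gfra1 level (121 CPM), and 1338 and 1670.3 CPM in clusters 5 and 3.

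**Figure D3:**
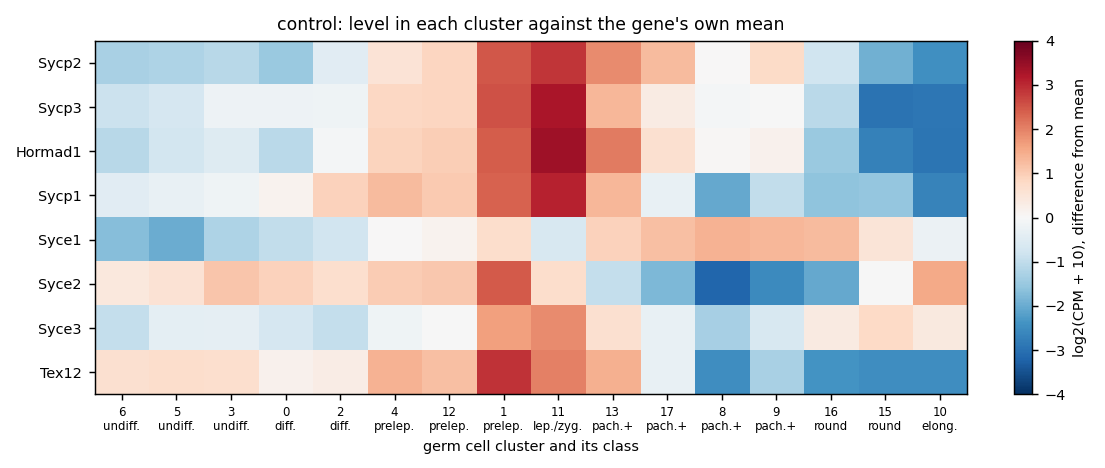
Level of each gene in the 16 named germ cell clusters of the control library, as the difference of log2(CPM + 10) from the gene's own mean over the clusters, with clusters ordered by stage along the x axis. The sum of the 8 genes was 8977 CPM in cluster 1 and 11626 CPM in cluster 11, and the row of Syce1 is highest in clusters 8, 9 and 16 instead.

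The bases before the start of these genes are shown because all 8 were at least 2-fold higher by CPM in the preleptotene-like class. This held for the class as a whole, over differentiating-like cells. Sequences are from RefSeq (GRCm38.p6), and windows of 250 bases before to 50 bases after each start were searched on both strands for 6 short motifs chosen from general knowledge. CACGTG, the E-box core bound by basic helix-loop-helix factors, was in the window of 5 of the 8 genes (Sycp1, Sycp3, Syce2, Tex12 and Hormad1) and in 8.09% of all 27025 genes. GCGGGAA, an E2F-type motif, was in 4 (Sycp3, Syce2, Tex12 and Hormad1) and in 5.29% of all genes. CNCCTCAG, a motif described for STRA8 and MEIOSIN in the mouse, was in 3 (Sycp1, Syce2 and Tex12) and in 9.12%. CCAAT was in 2 of the 8 (41.1% of all genes), AACNGTT in 1 (5.01%) and TGACGTCA in 0 (2.03%). The stretch directly before the outermost annotated start is printed for the 4 genes that hold CACGTG there, and for Syce1, which has neither of the first 2 motifs. Lower case letters run 5′ to 3′ on the strand of the gene, and capitals mark CACGTG and GCGGGAA. A match is a run of letters and not a bound site.
Sycp1, chr3:102936101-102936250, minus strand: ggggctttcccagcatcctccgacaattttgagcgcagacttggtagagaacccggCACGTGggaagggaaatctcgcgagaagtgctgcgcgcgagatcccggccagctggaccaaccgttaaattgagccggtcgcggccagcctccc
Sycp3, chr10:88459437-88459568, plus strand: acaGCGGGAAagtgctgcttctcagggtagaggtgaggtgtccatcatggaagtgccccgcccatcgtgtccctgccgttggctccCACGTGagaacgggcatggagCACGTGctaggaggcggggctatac
Tex12, chr9:50561326-50561418, minus strand: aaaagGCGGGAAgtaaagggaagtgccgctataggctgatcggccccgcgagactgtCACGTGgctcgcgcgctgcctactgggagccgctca
Hormad1, chr3:95559527-95559676, plus strand: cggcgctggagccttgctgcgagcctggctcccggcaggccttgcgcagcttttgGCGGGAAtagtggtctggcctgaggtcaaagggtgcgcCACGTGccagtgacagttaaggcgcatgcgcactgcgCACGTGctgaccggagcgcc
Syce1, chr7:140787855-140788004, minus strand: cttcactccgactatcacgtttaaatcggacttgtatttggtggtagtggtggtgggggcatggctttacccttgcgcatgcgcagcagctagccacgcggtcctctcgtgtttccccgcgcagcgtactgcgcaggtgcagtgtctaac

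Sycp3 and Hormad1 each held 2 copies of CACGTG in these stretches, Sycp1 and Tex12 held 1, and the matches began between 20 and 94 bases before the RefSeq start. The 3 genes printed with both motifs, Sycp3, Tex12 and Hormad1, were 4.24-, 4.43- and 5.53-fold higher in control preleptotene-like than differentiating-like cells. Syce2, with both in its search window, was 2.08-fold higher, and Sycp1, with CACGTG alone, was 2.50-fold higher. Syce1, printed with neither, was 2.53-fold higher. Sycp2 and Syce3, which also had neither, were 7.13- and 3.54-fold higher. Whether these letters bear on the size of the step was not tested.

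The 8 genes parted between preleptotene and leptotene/zygotene. In the control library 4 were at least 2-fold higher in leptotene/zygotene-like cells, which were 11% of all genes, and 2 were at least 2-fold lower, as were 24.6% of all genes. Hormad1 was 3.04-fold (2.90 to 3.18), Sycp3 2.65-fold, Sycp1 2.35-fold and Sycp2 2.12-fold higher. Syce3 was 1.97-fold higher (1.84 to 2.11) and Tex12 had a ratio of 0.85 (0.78 to 0.94). Syce1 and Syce2 were lower, with ratios of 0.48 (0.43 to 0.54) and 0.44 (0.40 to 0.48). With the stage taken cell by cell from marker scores instead of clusters, 0 of the 8 were past 2-fold in either direction, and Syce2 turned to a ratio of 1.01, so the split rests on the clusters. By UMIs per cell 5 of the 8 were 2-fold higher (the same 4 and Syce3) and 1 lower (Syce2), with 13.3% of all genes higher and 21.7% lower.

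The step into late spermatocytes depended on the scaling. By CPM 7 of the 8 were at least 2-fold lower in late spermatocyte-like than leptotene/zygotene-like control cells (39.2% of all genes) and Syce1 was 3.88-fold higher (29.6% of all genes were 2-fold higher). By UMIs per cell 0 of the 8 were 2-fold lower and 2 were higher (Sycp2 and Syce1), against 5.48% of all genes lower and 77.1% higher on that scale. The median log2 ratio over all genes was 2.67 there, with median depths of 47015 UMIs in late spermatocyte-like and 4942 UMIs in leptotene/zygotene-like cells. Sycp2 was at 15.95 UMIs per late spermatocyte-like cell and 7.72 per leptotene/zygotene-like cell, which turned its CPM ratio of 0.25 to a ratio of 2.07. Likewise Sycp3 had 19.8 and 17.4 UMIs per cell, Hormad1 13.4 and 9.49, Syce3 5.92 and 3.87, and Tex12 2.59 and 1.73. Syce2 had 1.57 and 1.66 UMIs per cell. In the Tomato-negative library, which held too few leptotene/zygotene-like cells for that step, 7 of the 8 were 2-fold lower by CPM in late spermatocyte-like than in preleptotene-like cells, as were 47.7% of all genes (30.5% were higher), and Syce1 had a ratio of 1.73. In control cells Sycp1 was lower on both scales, with 14.7 UMIs per late spermatocyte-like cell and 18.4 per leptotene/zygotene-like cell, and Syce1 was higher on both, at 33.1 and 1.02 UMIs per cell.

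**Figure D4:**
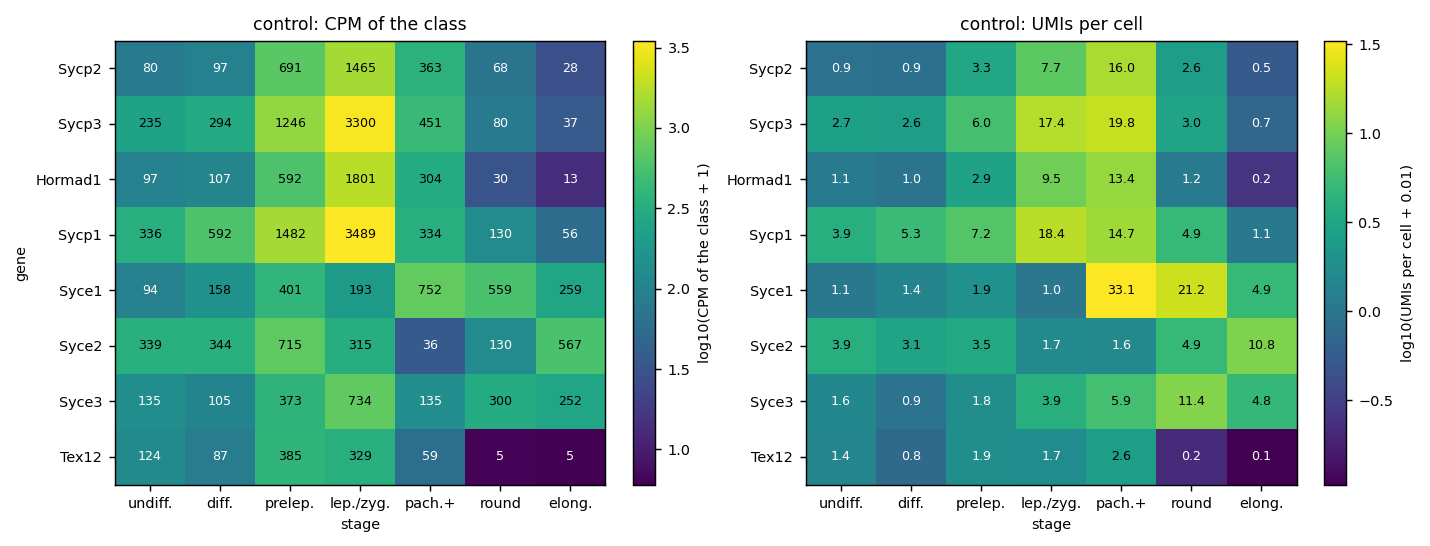
Control library, 8 genes (rows) by 7 stages (columns), as CPM of the class on the left and UMIs per cell on the right, with the value written in each field and colour on a log10 scale. For Sycp3 the CPM is 3299.7 in leptotene/zygotene-like and 451 in late spermatocyte-like cells, while the UMIs per cell are 17.4 and 19.8.

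By UMIs per cell only Sycp1 was highest in leptotene/zygotene-like control cells, against 5 genes by CPM (Sycp1, Sycp2, Sycp3, Syce3 and Hormad1). Of the others, Sycp2, Sycp3, Hormad1, Tex12 and Syce1 were highest per cell in late spermatocyte-like cells, Syce3 in round spermatid-like cells (11.4) and Syce2 in elongating spermatid-like cells (10.8).

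Among late spermatocyte-like cells the clusters differed in level in the control library. Cluster 13, with the highest Piwil1 level (1105 CPM), had a sum of 4575 CPM for the 8 genes, and cluster 17 had 2473 CPM. Cluster 9, with 32 control cells, had 2003 CPM. Cluster 8, with the highest Ccna1 level (371 CPM), had 1676 CPM. Sycp1 was at 1034 CPM in cluster 13 and 91.1 CPM in cluster 8, and Tex12 at 215 and 5.01 CPM. Syce1 went the other way, with 588 CPM in cluster 13 and 817 CPM in cluster 8.

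In spermatids the genes divided again. In round spermatid-like over late spermatocyte-like cells of the Tomato-negative library Syce2 had a ratio of 7.60 and Syce3 of 3.57, and 3 of the 8 were 2-fold lower (28.3% of all genes were higher and 18.3% lower). In the same step of the control library Syce2 was 3.64-fold and Syce3 2.23-fold higher by CPM (25.3% of all genes were 2-fold higher), and 5 of the 8 were at least 2-fold lower (35.9% of all genes). By UMIs per cell both stayed higher in round spermatid-like than in late spermatocyte-like control cells, at 4.94 and 1.57 for Syce2 and at 11.4 and 5.92 for Syce3. From round to elongating spermatid-like cells Syce2 was 5.08-fold higher in Tomato-negative and 4.36-fold higher in control cells, by CPM, and was the only member past 2-fold higher. In that step 3 of the 8 were 2-fold lower in Tomato-negative (23.7% of all genes were higher and 39.8% lower) and 5 of the 8 in control (15.6% higher and 44.2% lower). By UMIs per cell the Syce2 ratio was 1.85 (8.45 over 4.58) in Tomato-negative, no longer past 2-fold, and 2.19 (10.8 over 4.94) in control. On that scale 11.1% of all genes were 2-fold higher and 68.9% lower in Tomato-negative, and 8.9% higher and 71.1% lower in control.

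The comparison of Scf-cKO with control asked whether the spermatogonia left without Sertoli cell Scf carried these transcripts at another level. In undifferentiated-like cells 0 of the 8 genes were past 2-fold, where 2.97% of all 16421 genes were 2-fold higher and 5.95% lower. The ratios of Scf-cKO over control were between 0.75 (0.66 to 0.84) for Sycp2 and 1.23 (1.13 to 1.35) for Tex12, with Sycp1 at 0.997 (0.944 to 1.055) and Syce2 at 1.01 (0.95 to 1.06). The median log2 ratio of the 8 was -0.06, against -0.07 over all genes.

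In differentiating-like cells the ratios spread more widely, but 0 of the 8 were past 2-fold, against 17.9% of all genes higher and 14.6% lower. Syce1 had 82.3 CPM in Scf-cKO and 158 CPM in control, a ratio of 0.52 (0.48 to 0.56). Sycp1 had a ratio of 0.65 (0.62 to 0.67) and Sycp2 of 0.69 (0.63 to 0.75). Tex12 ran the other way, with 161 CPM in Scf-cKO and 86.8 CPM in control, a ratio of 1.85 (1.71 to 2.01).

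The cells of this class were not alike in the 2 libraries. Of the Scf-cKO cells 766 were in cluster 0 and 71 in cluster 2, and of the control cells 535 and 572. The differentiation marker Kit was at 41.7 CPM in Scf-cKO and 176 CPM in control cells of the class, and Zbtb16, a gene of undifferentiated spermatogonia, at 175 and 41.996 CPM. Without integration of the libraries 16 Scf-cKO cells fell into this class, too few to compare. Within cluster 0 the ratios were 0.55 for Syce1, 0.82 for Sycp1, 1.97 for Tex12 and 1.83 for Hormad1, which had 1.24 over the class. Within cluster 2 these genes had 0.68, 0.78, 1.22 and 0.88. With cells limited to 3500 genes the Syce1 ratio was 0.41 in this class (276 Scf-cKO and 676 control cells). It was 0.37 in undifferentiated-like cells, of which 33 Scf-cKO and 55 control cells were left. Both were past 2-fold, and the share of all genes was not taken under that limit. Whether the class makeup sets these ratios was not tested.

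In preleptotene-like cells the ratios over the whole class (98 Scf-cKO cells) were between 0.875 for Syce1 (0.752 to 1.009) and 1.17 for Tex12 (1.02 to 1.33). Hormad1 was also at 0.875 (0.773 to 0.984). In this class 0 of 8 were past 2-fold, against 5.58% of all genes higher and 13% lower. Sycp1 was at 1471 CPM in Scf-cKO and 1482 CPM in control, a ratio of 0.99 (0.92 to 1.07). Of the Scf-cKO cells 57 were in cluster 1, as were 794 of the control cells, and within that cluster the ratios were between 0.83 (Sycp3) and 1.03 (Tex12). Within cluster 4, with 38 Scf-cKO and 589 control cells, they were lower for 7 of the 8, at 0.537 (0.372 to 0.733) for Hormad1, 0.540 for Syce1, 0.581 for Sycp2, 0.653 for Syce3, 0.663 for Sycp3, 0.781 for Syce2 and 0.793 for Sycp1, while Tex12 had 1.0001 (0.722 to 1.33). None of the 8 was past 2-fold in either cluster. Cluster 1, with the higher levels, held a larger share of the 98 Scf-cKO than of the 1628 control cells of the class. Few Scf-cKO cells were in this class under any setting, and their number was 94 to 375 across settings other than the 3500-gene limit.

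**Figure D5:**
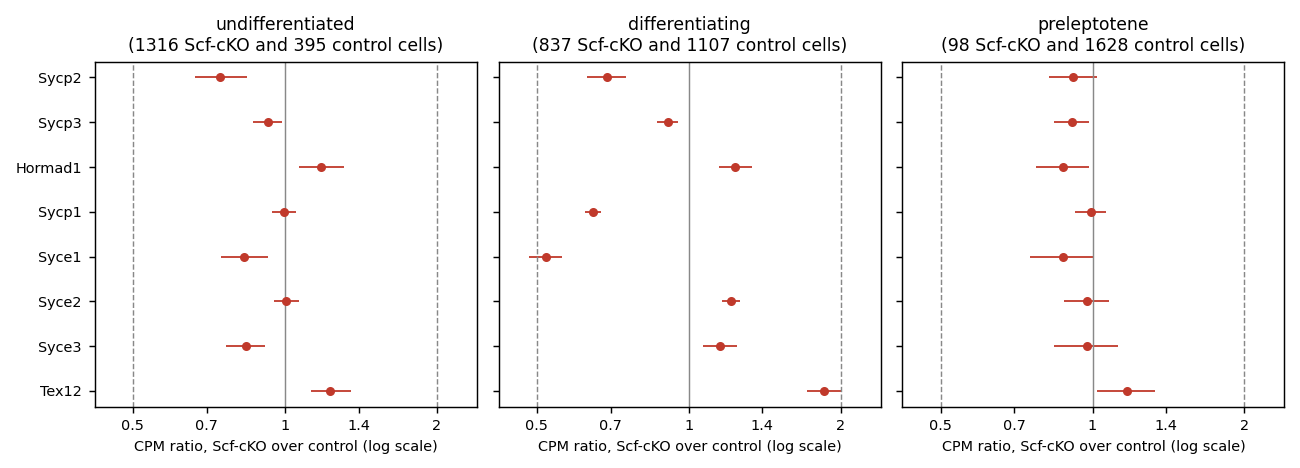
Ratio of CPM, Scf-cKO over control (x axis, log scale, with exact conditional 95% intervals for counting error), for the 8 genes in undifferentiated-like, differentiating-like and preleptotene-like cells, with dashed lines at 0.5 and 2. All points lie between the dashed lines, with Syce1 at 0.52 and Tex12 at 1.85 in differentiating-like cells nearest to them.

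Past preleptotene the Scf-cKO library held 6 leptotene/zygotene-like and 17 late spermatocyte-like cells, which are given as values only. In the 6 cells Sycp1 was at 4205 CPM (3567 to 4925) and Sycp3 at 3195 CPM (2642 to 3829), and in the 17 cells Syce1 was at 783 CPM (725 to 845). The control values were 3489, 3299.7 and 752 CPM.

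The Tomato-negative library gave another view of Scf-intact cells, though its mice differ from control in age, alleles and sort. In undifferentiated-like, differentiating-like and preleptotene-like cells 0 of the 8 genes were past 2-fold of control (6.57%, 7.39% and 4.43% of all genes were higher and 1.35%, 1.48% and 6.27% lower). The largest ratio was 1.46 (1.34 to 1.60) for Syce3 in undifferentiated-like cells. In late spermatocyte-like cells 3 of the 8 were 2-fold lower, as were 18.7% of all genes (8.15% were higher), with ratios of 0.12 for Tex12, 0.25 for Sycp1 and 0.39 for Syce2. Of the Tomato-negative cells in that class 432 were in cluster 9 and 9 in cluster 13, and of the control cells 32 and 257. Within cluster 9 the ratios were 0.19 for Tex12, 0.35 for Sycp1 and 0.49 for Syce2, and within cluster 17 they were 0.26, 0.43 and 0.65. Syce1 was at a ratio of 1.035 (1.018 to 1.052) in the whole class. With no upper limit on genes per cell this class held 1125 Tomato-negative and 1225 control cells, against 497 and 897 here. These ratios were not taken without the limit. In round spermatid-like cells (7.01% of all genes higher, 2.77% lower) and elongating spermatid-like cells (23.2% higher, 8.1% lower) 0 of the 8 were past 2-fold.

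Against Tomato-negative instead of control, Scf-cKO differentiating-like cells had Syce1 at 0.45, with 19.4% of all genes 2-fold lower and 16.3% higher, and the other 7 genes were within 2-fold. In undifferentiated-like and preleptotene-like cells 0 of the 8 were past 2-fold of Tomato-negative (2.49% and 7.72% of all genes were higher and 11.6% and 12.4% lower). Within cluster 4 of the preleptotene-like class Sycp3 was at 0.496 (0.395 to 0.611) and Syce3 at 0.424 (0.266 to 0.625). The share of all genes past 2-fold was not taken by cluster. The comparisons with control and with Tomato-negative share the Scf-cKO cells.

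The 10 further genes listed of the complex, the axis and its cohesins were read in the same way. In the step to preleptotene 8 of 10 were at least 2-fold higher in Tomato-negative (12.5% of all genes) and 7 of 10 in control (18.2% of all genes). Rad21l, a meiotic cohesin subunit, was 27.2-fold higher in control (123 CPM in preleptotene-like and 4.47 CPM in differentiating-like control cells), Hormad2 4.71-fold and 4930447C04Rik (Six6os1, a central element gene) 3.42-fold. Smc1b, the meiotic SMC1, was at 1813 CPM in preleptotene-like and 883 CPM in leptotene/zygotene-like control cells. Of these 10 genes 5 were at least 2-fold lower and 0 higher in leptotene/zygotene-like cells, against 24.6% of all genes lower and 11% higher. In that step 4930447C04Rik had a ratio of 1.36 and Hormad2 of 1.53. Rec8, a meiotic kleisin subunit of cohesin, was at 51.8 CPM in round spermatid-like and 0.203 CPM in late spermatocyte-like control cells, so it was read again in spermatids. Scf-cKO over control ratios were within 2-fold for all 10 in undifferentiated-like, differentiating-like and preleptotene-like cells. The shares of all genes past 2-fold in these classes are those given above.

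The 5 genes that tether telomeres to the nuclear envelope in meiosis were all at least 2-fold higher in control preleptotene-like over differentiating-like cells, with Terb1 11.7-fold, Terb2 7.62-fold and Majin 6.10-fold higher. In Tomato-negative cells 4 of the 5 were. Of all genes 18.2% were 2-fold higher in that step in control and 12.5% in Tomato-negative cells. Majin was the only gene of either list past 2-fold between Scf-cKO and control, with a ratio of 0.38 in differentiating-like cells. Of all genes 14.6% were 2-fold lower and 17.9% higher there. Majin was at 2.82 CPM in Scf-cKO and 7.42 CPM in control differentiating-like cells, and at 1.76 CPM in control undifferentiated-like cells. The makeup of the differentiating-like class differed between these libraries, as given above. Whether it sets the ratios of these genes in that class was not tested. Against Tomato-negative in that class Rec8, Stag3, Terb1, Terb2, Majin and Sun1 were 2-fold lower and Rad21l higher (19.4% and 16.3% of all genes). Rec8 was also lower in undifferentiated-like (0.46) and Terb2 in preleptotene-like cells (0.49), where 11.6% and 12.4% of all genes were. The median log2 ratio of the 5, Scf-cKO over control, was -0.81 in differentiating-like cells, against -0.07 over all genes. It was -0.45 in undifferentiated-like and -0.54 in preleptotene-like cells, against -0.07 and -0.03 over all genes.

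Of 15567 other genes with at least 100 counts in control germ cells, Strbp, whose RNA-binding protein is known from spermatids, was most like the mean of the 8 (Pearson's r of 0.97 over 15 class and library points). Tmem59l (0.95), Dnajc21 (0.95), Ankrd31 (0.95), Smc1b (0.94), Nhej1 (0.94), Pick1 (0.94), Ect2 (0.93), Bub1 (0.93) and Pemt (0.93) followed. ANKRD31 takes part in meiotic break formation in the mouse. By single gene, Tex12 was most like Ccnb1ip1 (0.99), a crossover factor, Brca2 (0.97) and Gm43588 (0.97), and Hormad1 most like Atr (0.98), Hectd2 (0.98) and Nhej1 (0.98). Sycp3 was most like Nhej1 (0.97), Ankrd31 (0.96) and Atr (0.96), Sycp1 like Ankrd31 (0.97), Tex101 (0.96) and Strbp (0.96), and Sycp2 like Terb1 (0.95), Ly6k (0.95) and Gm14167 (0.95). Syce1 was most like Chchd6 (0.97), Ccnk (0.95) and Fgfr1op2 (0.95), Syce2 like Cstf2 (0.93), Ube2k (0.93) and A130010J15Rik (0.91), and Syce3 like Trim52 (0.93), Ankrd49 (0.90) and Rimklb (0.89). Among the 8 themselves, r ran from 0.11 (Syce1 with Syce2) to 0.99 (Sycp3 with Hormad1). The points share libraries and depth, and the values are a description with no test.

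Somatic levels were not the same for all 8 genes within a library. In Scf-cKO somatic cells Syce2 was at 13.5 CPM (12.1 to 15.1), while the other 7 were between 1.10 and 3.08 CPM. Its level was similar over the somatic classes with at least 150 cells, from 10.6 CPM in vascular smooth muscle-like to 18.2 CPM in immune-like cells. At 2000 UMIs a Syce2 UMI was in 2.80% of Scf-cKO somatic cells and in 46.2% of undifferentiated-like cells. The last 1829 bases of Syce2 overlap Gcdh, a mitochondrial enzyme gene on the other strand, which was at 17.1 CPM in the same somatic cells and 4.72 CPM in undifferentiated-like cells. Sycp3 lies within Chpt1 and Tex12 within Il18, both on the other strand, and those were at 117 and 10.3 CPM in Scf-cKO somatic cells. Whether the counting used strand is not stated by any source consulted, so reads of these pairs cannot be told apart with certainty.

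In the Tomato-negative library the sum of the 8 genes was 205 CPM in 614 Sertoli-like cells, against between 56.5 and 75.5 CPM in Tcf21 stromal-like, endothelial-like, myoid-like and vascular smooth muscle-like cells. Syce2 was at 57.4 CPM and Syce1 at 41.6 CPM in these Sertoli-like cells. Whether RNA from other cells takes part in these levels was not tested.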

How the data were processed

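The authors deposited raw UMI counts per gene and cell for droplet 3′ libraries. The submitters' processing notes name Cell Ranger 2.1.1, Seurat 3.1 and GRCm38, while strand use in counting is not stated by any source consulted. Of a merged table only the cells with barcodes ending in _1 were used as Tomato-negative, since its 6264 control cells repeat the control table (0 values differed over 29872 genes).

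The filter kept cells in which 200 to 7500 genes were detected and mitochondrial UMIs did not exceed 10%: 7018 of 7252 Scf-cKO, 5087 of 7626 Tomato-negative and 5976 of 6264 control cells. The upper limit departs from the 3500 of the study's methods text, which leaves 4545 Scf-cKO, 2159 Tomato-negative and 3637 control cells and no late spermatocyte-like class. The limit of 7500 also removes deep late cells, unequally by library. With no upper limit the late spermatocyte-like class held 1125 Tomato-negative and 1225 control cells, against 497 and 897. The round spermatid-like class held 490 and 209, against 171 and 219. Levels and UMIs per cell of these classes are those of cells below the limit. With 7500 genes and a 5% mitochondrial limit 6837 Scf-cKO and 5827 control cells remain, the cell numbers stated in the study. The tables held 68602272, 195380762 and 90453018 UMIs before this filter. The 3 libraries were integrated and clustered in Seurat 5.3.0 (R 4.3.3; 20 dimensions, resolution 0.5), and germ cells were clustered again (25 components, resolution 1.0) without the 8 genes or the other listed genes. Clusters were named from marker lists. Of 11368 germ-side cells 1040 in 4 clusters stayed unnamed. Class names are rebuilt here and may differ from those of the study. Scrublet in scanpy 1.11.5 marked 353 Scf-cKO, 327 Tomato-negative and 210 control cells as doublets, which were left in and removed as an alternative.

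UMIs were summed per class and library as CPM with exact Poisson intervals. Shares have Clopper-Pearson intervals and ratios have exact conditional binomial intervals, all at 95%. A gene was called at 2-fold with 0.5 added to each count, at least 20 counts over both classes and at least 30 cells in each. The ratio code was tested on simulated data. Python 3.11.15, numpy 2.4.6, pandas 2.3.3, scipy 1.17.1 and matplotlib 3.10.9 were used. Alternatives covered the gene limit (3500 or none), the mitochondrial limit (5%), integration, resolution (0.3), staging per cell, doublets, scaling, fold and minimum counts.

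The genes named are the 8, listed genes past 2-fold, and, by Pearson's r of log2(CPM + 10) over classes of at least 50 cells, the 10 genes most like their mean and the 3 most like each. Rec8 was singled out after its values were seen. The 8 genes and all lists were chosen with earlier results of these data known.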

Additional observations from a re-analysis of the deposited data

Results flagged for a closer look

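Cells of the 4 germ-side clusters that could not be named were not used in any comparison, yet they held UMIs of the 8 genes above the level that a count of 0 allows. The summed level was 1155 CPM in 452 Scf-cKO cells, 1837 CPM in 213 Tomato-negative cells and 2463 CPM in 375 control cells. The levels that 3 counts would give were 0.921, 3.84 and 3.08 CPM in Scf-cKO, Tomato-negative and control. Cluster 7 (212 Scf-cKO, 102 Tomato-negative and 257 control cells) and cluster 18 (0, 100 and 47 cells) were left unnamed for low depth, with medians of 1053 and 2125 UMIs. Cluster 14 (177, 11 and 67 cells) and cluster 19 (63, 0 and 4 cells) had medians of 9126 and 15463 UMIs and were led by myoid and Tcf21 stromal markers, and Scrublet marked 62.4% and 91.0% of their cells as doublets.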

How the results depend on the processing

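No paired analysis was possible because each group is 1 library, and for the same reason no replicate could be left out. The summed level of the 8 genes in control leptotene/zygotene-like cells, 11626 CPM, was 11938 CPM with cells limited to 3500 genes, 12229.9 CPM with no limit, 12105 CPM without integration, 12338 CPM at resolution 0.3, 11895 CPM without doublets and 8528 CPM with staging per cell. The largest shift was that of staging per cell, under which 0 of the 8 genes were 2-fold higher and 0 lower in leptotene/zygotene-like over preleptotene-like cells (4 and 2 in the clusters), with Syce2 at a ratio of 1.01. The number lower was 1 at resolution 0.3 and 1 by UMIs per cell.

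Scaling by UMIs per cell, chosen after seeing the data, left 1 gene highest in leptotene/zygotene-like cells in place of 5, and 4 genes 2-fold higher in preleptotene-like over differentiating-like cells in place of 8. In late spermatocyte-like over leptotene/zygotene-like cells it gave 2 genes higher in place of 1 and 0 lower in place of 7, with ratios of 2.07 for Sycp2, 1.14 for Sycp3, 1.53 for Syce3, 1.49 for Tex12 and 1.41 for Hormad1, all of which were below 1 by CPM. The median log2 ratio over all genes was 2.67 on that scale.

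Between Scf-cKO and control, the count past 2-fold was 1 in place of 0 in undifferentiated-like cells and 1 in place of 0 in differentiating-like cells with the 3500-gene limit (Syce1 in both). That limit left 33 Scf-cKO and 55 control undifferentiated-like cells. In differentiating-like cells the count was 3 at a fold of 1.5 (Tex12 higher, Sycp1 and Syce1 lower). It was 1 with Tomato-negative in place of control, also chosen after seeing the data. The share of all genes was not taken at 1.5-fold or under the 3500-gene limit. The cause of these counts was not tested. Sycp3 shares in undifferentiated-like cells were 34.1% in Scf-cKO, 41.3% in Tomato-negative and 34.2% in control at 2000 UMIs, and 16.9%, 23.05% and 18.7% at 1000 UMIs, as thinning removes UMIs. The 3500-gene limit left no late spermatocyte-like class, and without integration differentiating-like cells of Scf-cKO were too few for a ratio.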
